A study of Mus musculus with 22 samples.

Results

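Male mice carrying a floxed Smc3 gene were compared by bulk RNA sequencing of brain tissue, with 6 libraries labelled cKO (conditional knockout) and 5 labelled WT, which are 11 of the 22 libraries of the series. The members are all libraries of the males' table of gene counts, taken by the sex and genotype given in their labels, and no expression value was used to choose them. Libraries labelled cKO carry Camk2a-cre/ERT2+, a Cre recombinase that works only after tamoxifen and is driven by the promoter of Camk2a, a kinase gene of forebrain excitatory neurons. Libraries labelled WT are Camk2a-cre/ERT2-, so they share the floxed alleles and the tamoxifen, given by oral gavage, and lack only the recombinase. All males are given as 8 week old mice, sampled 6 weeks after tamoxifen, and the labels do not say to which of these events the age refers. Recombination in this model is limited to cells in which the Camk2a promoter is active and leaves glia, vessels and most interneurons, which all contribute RNA to the tissue, with both alleles. The labels number the libraries without saying in words that each is a separate animal, and the p-values measure the spread between these libraries. Sample titles name the hypothalamus and call every sample a control, whereas the tissue field names the prefrontal cortex.

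SMC3 is one of the core subunits of cohesin, a ring-shaped protein complex that holds sister chromatids together in dividing cells and extrudes loops of chromatin in all cells, neurons included. Loop extrusion stops at sites bound by CTCF and brings enhancers near promoters, and genes that depend on distant enhancers, the clustered protocadherins among them, are known to need it. In neurons that no longer divide, the loss of cohesin is therefore read mainly through gene expression.

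Libraries held 12771354 to 15028342 counts, which limits the precision for genes of low abundance. Over the 25 replicate pairs within groups the chi-square per degree of freedom was 5.86 to 76.4, so no pair looked like copies of 1 library, which says nothing of their quality. The tissue was checked against region markers. All 22 cortex markers were tested, among them Slc17a7, the cortical vesicular glutamate transporter, at 1399.9 ± 402 CPM (read counts scaled to equal library size, SD, n = 5) in WT, and Tbr1, a deep-layer transcription factor, at 101 ± 32.4 CPM. Of 24 hypothalamus markers 15 were matched to a gene of the deposited counts, and only 6 of these had enough counts to be tested. The vasopressin gene Avp averaged 0.125 CPM in WT and 0.117 CPM in cKO. Striatal markers were present too, all 24 of them tested, with a summed level of 1340.0 to 1802 CPM over WT and 1079 to 2195 CPM over cKO libraries. As a mean log2 CPM, in which each marker weighs equally, they varied more, from 4.015 to 5.343 over WT and 3.758 to 5.634 over cKO libraries. The summed level of 30 oligodendrocyte markers ranged from 2593 to 12380.0 CPM in WT and from 3341 to 15160.0 CPM in cKO, so libraries of one group differed severalfold in these markers. In bulk tissue, fewer cells of a type and less RNA per cell cannot be told apart.

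One library of the cKO group stood apart. In cKO replicate 13 the mean log2 CPM of GABA receptor genes was 6.27, against 6.85 to 7.01 in the other cKO libraries, and the same library was lowest for adrenergic receptors, neuropeptide receptors, potassium channels and all 3 protocadherin clusters. It was highest for oligodendrocyte markers, at 7.05, and for nuclear oxidative phosphorylation genes, at 7.47. Without it 60 genes passed the threshold in place of 94. Leaving out another single library gave from 18 calls (without WT replicate 4 or cKO replicate 12) to 201 (without cKO replicate 8). WT replicates 1 and 6 stood below the other WT libraries for activity-induced transcription factors, a difference described with those genes.

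Smc3 (ENSMUSG00000024974), the gene the design targets, was more abundant in libraries labelled cKO, not less. It stood at 71.8, 91.7, 76.1, 80.5 and 95.6 CPM in WT libraries 1, 3, 4, 5 and 6, and at 172, 132, 131, 146, 135 and 144 CPM in cKO libraries 8, 9, 10, 12, 13 and 14. Every library labelled cKO was above every library labelled WT, with log2 fold change 0.79 ± 0.10 SE and adjusted p = 0.00541. A gene total counts reads from every exon, so it shows neither the presence nor the loss of the floxed exons, and every direction given here follows the labels. The other 14 tested genes of cohesin, its loaders and CTCF held no gene past the threshold and had a median log2 fold change of 0.10. The smallest p among them belonged to Stag1, Pds5b and Stag2, at 0.26 (adjusted p = 0.321), -0.51 (adjusted p = 0.325) and 0.27 (adjusted p = 0.508).

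Falls outnumbered rises in the males. Receptors for serotonin, somatostatin and noradrenaline, chains of collagen, axon guidance and secreted signalling genes, and genes induced by neuronal activity were among the genes that fell, and the few rises were spread over different lists. Of 16098 genes tested with edgeR's quasi-likelihood test, 94 (0.584%) passed an adjusted p of 0.05, of which 81 (0.503%) were lower and 13 (0.0808%) higher in the libraries labelled cKO. At an unadjusted p under 0.05 there were 1528 genes, 894 lower and 634 higher. Over all genes tested 47.89% had a negative log2 fold change and the median was 0.01, so an excess of falls was seen at small p and not over all genes. The falls were also the larger changes. Of the called genes 36 fell and 3 rose by at least 2-fold, and the median size was 0.97 on the log2 scale for falls and 0.59 for rises. Of the 81 falls, 77 had every cKO library below every WT library, an arrangement found in 1.37% of all genes tested, and all 13 rises had every cKO library above every WT library, found in 0.789% of all genes.

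**Figure D1:**
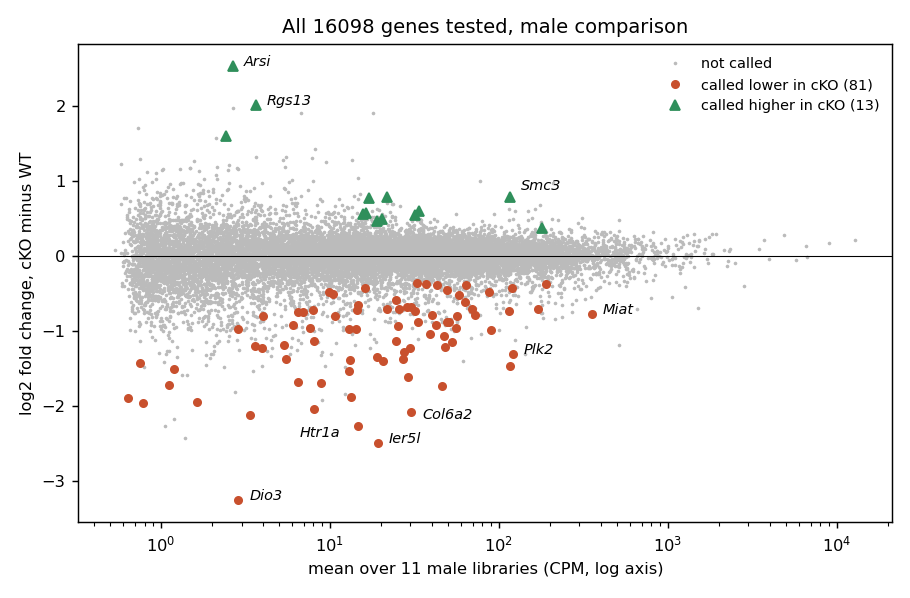
Each point is one of 16098 genes, placed by its mean over the 11 male libraries (CPM, log axis) and its log2 fold change of cKO minus WT. Filled circles are the 81 genes called lower and triangles the 13 called higher, and the called falls reach -3.26 (Dio3) while most called rises lie under 1.

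The largest falls were followed library by library, always in the order WT 1, 3, 4, 5 and 6 and then cKO 8, 9, 10, 12, 13 and 14. Ier5l (ENSMUSG00000089762), a member of the immediate early response family, held 22.6, 35.9, 44.4, 42.4 and 28.9 CPM in WT and 5.78, 5.22, 7.36, 3.76, 5.63 and 9.32 CPM in cKO. The highest cKO library lay far below the lowest WT library, and the gene fell 5.64-fold with log2 fold change -2.49 ± 0.23 SE and adjusted p = 0.00113. Dio3 (ENSMUSG00000075707), the enzyme that inactivates thyroid hormone and an imprinted gene, held 3.03, 4.64, 7.44, 7.32 and 5.74 CPM in WT and 1.05, 0.736, 0.347, 0.342, 0.156 and 0.807 CPM in cKO. It was a gene of low abundance, with the groups apart and the largest fall of all called genes, log2 fold change -3.26 ± 0.39 SE and adjusted p = 0.00328. Cdkn1c (ENSMUSG00000037664), an imprinted inhibitor of cyclin-dependent kinases, held 6.12, 9.199, 12.1, 14.6 and 9.93 CPM in WT and 2.23, 3.88, 3.06, 2.39, 3.91 and 3.96 CPM in cKO. Its groups did not overlap either, with log2 fold change -1.68 ± 0.23 SE and adjusted p = 0.0101. These were 2 of 39 imprinted genes tested, and the median over that list was -0.05, close to that of all genes.

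A few receptors for monoamines and somatostatin fell. Htr1a (ENSMUSG00000021721), the inhibitory serotonin 1A receptor of cortical and raphe neurons, held 42.4, 25.4, 25.4, 20.02 and 15.5 CPM in WT and 5.64, 7.16, 5.21, 5.75, 3.21 and 4.84 CPM in cKO. Every cKO library was below the lowest WT library, with log2 fold change -2.28 ± 0.25 SE and adjusted p = 0.00287. Sstr2 (ENSMUSG00000047904), a somatostatin receptor, held 17.96, 19.9, 32.5, 25.8 and 14.6 CPM in WT and 1.64, 5.55, 7.64, 6.84, 5.94 and 8.295 CPM in cKO. The groups were apart and cKO replicate 8 was lowest by a wide margin, with log2 fold change -1.89 ± 0.33 SE and adjusted p = 0.0324. Sstr1 (ENSMUSG00000035431), a related receptor for the same peptide, held 8.61, 19.8, 19.8, 4.85 and 15.9 CPM in WT and 2.95, 4.48, 3.33, 5.13, 1.33 and 2.72 CPM in cKO. Here WT replicate 5 lay inside the cKO range, so the groups overlapped, with log2 fold change -2.04 ± 0.39 SE and adjusted p = 0.0389. Adra2c and Adra2a, alpha-2 adrenergic receptors that inhibit adenylyl cyclase, fell as well, while the third of that class, Adra2b, was at -0.93 (adjusted p = 0.833). Adra2c averaged 19.96 ± 3.71 CPM over the 5 WT libraries and 7.59 ± 2.17 CPM over the 6 cKO libraries (mean ± SD), with log2 fold change -1.39 ± 0.21 SE and adjusted p = 0.0184. The paralogue Adra2a moved from 35.2 ± 13.9 to 16.02 ± 2.89 CPM, with log2 fold change -1.13 ± 0.21 SE and adjusted p = 0.0379, and WT replicate 1 at 59.8 CPM was well above the other WT libraries.

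**Figure D2:**
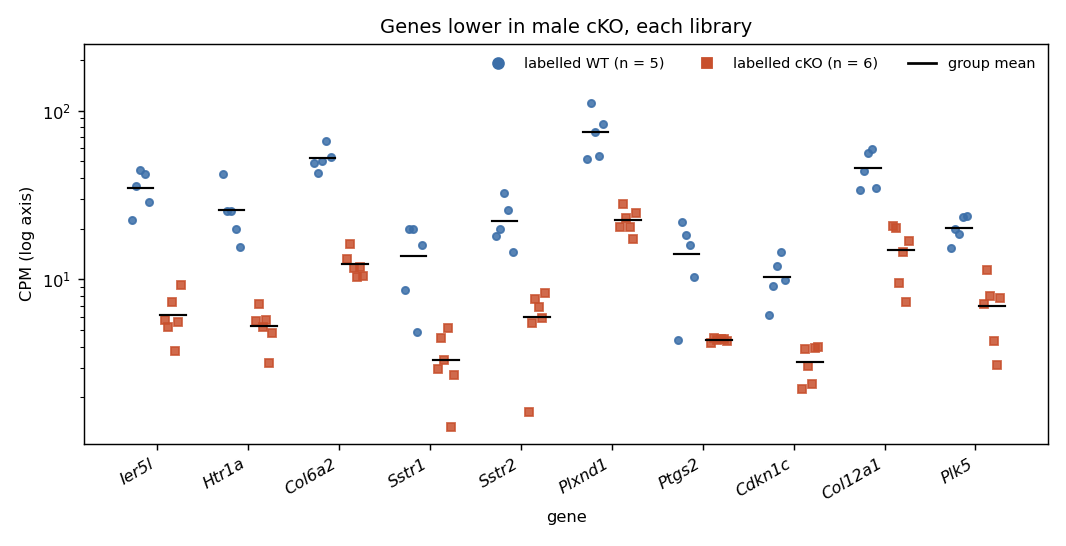
Each point is one library (CPM, log axis), for the 10 called genes with the largest falls among those with a mean count of at least 50, in 5 libraries labelled WT and 6 labelled cKO, with lines at the group means. The groups are apart for 8 of the 10 genes, while WT replicate 5 for Sstr1 and WT replicate 1 for Ptgs2 lie within the cKO range.

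As lists, the receptors moved unequally. All 9 adrenergic receptors had negative log2 fold changes, against 47.89% of all genes tested. Of these receptors 2 fell, none rose, and the median was -0.94 against 0.01 for all genes. Adrb3, a beta receptor, had every cKO library below every WT library without passing the threshold, at -0.94 (adjusted p = 0.0627). Of 12 serotonin receptors 1 fell and none rose, with a median of -0.33, which was -0.08 without WT replicate 1. Htr2a, the excitatory serotonin 2A receptor, and Htr7 had values of -1.19 (adjusted p = 0.254) and -0.67 (adjusted p = 0.662). Of 25 neuropeptide receptors 2 fell and none rose, with a median of -0.40, and the neuropeptide Y receptor Npy2r was at -1.10 (adjusted p = 0.119). Without cKO replicate 13 the falls were 1 adrenergic and 0 neuropeptide receptors, and over all alternatives they ranged from 0 to 5 and from 0 to 6. The peptide genes themselves had no member past the threshold among 20, with a median of -0.08; Npy was at 0.55 (adjusted p = 0.317) and the granin Chgb at 0.48 (adjusted p = 0.219). Dopamine and muscarinic receptors held no called gene among 3 and 4 tested, and the muscarinic receptor Chrm3 was at -0.91 (adjusted p = 0.112). None of the ionotropic and metabotropic glutamate receptors or GABA receptors passed, with medians of -0.23 for 9 AMPA and kainate, -0.15 for 6 NMDA, -0.25 for 7 metabotropic glutamate and -0.19 for 14 GABA receptor genes. The NMDA median was -0.06 without cKO replicate 13, and without cKO replicate 8 the medians of metabotropic glutamate and neuropeptide receptors were -0.51 and -0.68. With the oligodendrocyte score as a covariate 2 AMPA and kainate receptor genes passed. The AMPA receptor subunits Gria2 and Gria3 had every cKO library below every WT library, at -0.32 (adjusted p = 0.105) and -0.66 (adjusted p = 0.159).

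Promoter windows are shown for Ier5l and Htr1a, the largest falls of the library plot, whose calls held with each library left out, and for Sstr2 and Plk2, whose windows hold a cyclic AMP response element (the motif bound by CREB), in RefSeq's GRCm38.p6 sequence. Each runs from 250 bases before to 50 bases after the gene start, 5′ to 3′ on the gene's strand. Capitals mark the motif TGACGTCA, and none of the motifs searched was in the windows of Ier5l and Htr1a.
Ier5l, chr2:30474150-30474449, minus strand: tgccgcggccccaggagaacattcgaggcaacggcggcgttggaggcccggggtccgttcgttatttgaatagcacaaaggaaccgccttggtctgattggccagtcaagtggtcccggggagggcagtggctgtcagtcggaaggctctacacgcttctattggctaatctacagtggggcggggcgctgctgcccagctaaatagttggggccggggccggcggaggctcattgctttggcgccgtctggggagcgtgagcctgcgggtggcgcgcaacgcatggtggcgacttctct
Htr1a, chr13:105443443-105443742, plus strand: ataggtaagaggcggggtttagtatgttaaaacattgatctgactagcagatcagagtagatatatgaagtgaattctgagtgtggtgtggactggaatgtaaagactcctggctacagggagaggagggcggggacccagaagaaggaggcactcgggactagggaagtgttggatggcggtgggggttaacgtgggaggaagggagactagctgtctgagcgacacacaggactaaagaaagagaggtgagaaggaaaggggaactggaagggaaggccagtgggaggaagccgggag
Sstr2, chr11:113619077-113619376, plus strand: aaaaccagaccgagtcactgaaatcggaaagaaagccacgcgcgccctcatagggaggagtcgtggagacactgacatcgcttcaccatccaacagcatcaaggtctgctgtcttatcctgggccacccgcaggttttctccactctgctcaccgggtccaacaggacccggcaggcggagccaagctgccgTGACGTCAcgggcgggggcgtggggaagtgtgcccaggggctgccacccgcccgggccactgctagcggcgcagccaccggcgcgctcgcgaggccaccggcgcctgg
Plk2, chr13:110394794-110395093, plus strand: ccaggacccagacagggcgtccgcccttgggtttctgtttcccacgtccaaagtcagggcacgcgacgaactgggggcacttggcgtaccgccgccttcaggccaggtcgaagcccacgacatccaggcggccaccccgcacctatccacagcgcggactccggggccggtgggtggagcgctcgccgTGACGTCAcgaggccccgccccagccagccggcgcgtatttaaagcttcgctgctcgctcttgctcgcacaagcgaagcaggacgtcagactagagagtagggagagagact

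The same windows were searched on both strands in 58 of the 81 genes that fell, for which the RefSeq table has a window, counting a gene once if any of its windows held the motif. TGACGTCA was in 3 (5.17%), against 3.40% of the 11901 tested genes with a window, and the third was Ptpru, a receptor tyrosine phosphatase gene. The E-box CACGTG was in 7 (12.1%, against 11.3%), the AP-1 motif TGANTCA in 1 (1.72%, against 6.16%) and AGGGGGC, a core of the CTCF motif, in 12 (20.7%, against 19.2%). The TATA motif TATAAA was in 9 (15.5%, against 9%). All of these shares are descriptions of letters found, without a test, and with so few genes 1 gene moves a share by 1.72 percentage points.

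A pair of collagen genes fell. Col6a2 (ENSMUSG00000020241), a chain of collagen VI, held 49.2, 42.7, 50.002, 65.8 and 52.8 CPM in WT and 13.3, 16.1, 11.7, 10.4, 11.8 and 10.5 CPM in cKO. The libraries within each group lay close together and far from the other group, giving the smallest adjusted p of the comparison, with log2 fold change -2.08 ± 0.14 SE and adjusted p = 4.22e-05. Col12a1 (ENSMUSG00000032332), a fibril-associated collagen, held 33.8, 43.99, 56.4, 58.9 and 34.7 CPM in WT and 20.7, 20.2, 9.58, 14.5, 7.35 and 16.9 CPM in cKO, without overlap and with log2 fold change -1.61 ± 0.26 SE and adjusted p = 0.0269. These were 2 of 28 collagens tested, none rose, and the median was -0.13, which turned to 0.12 without WT replicate 1. The partner chain Col6a1 was at -0.85 (adjusted p = 0.0878). Fibrillar collagens of leptomeningeal cells pointed the other way without passing, with Col3a1 at 1.28 (adjusted p = 0.147) and Col1a1 at 0.80 (adjusted p = 0.192), and the median of 26 pericyte and leptomeningeal markers was 0.46. The summed level of those markers was 495 to 1081 CPM in WT and 380.1 to 1783 CPM in cKO, and these ranges overlap.

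A few guidance receptors and ligands fell. Plxnd1 (ENSMUSG00000030123), a plexin receptor for semaphorins, held 51.8, 110.5, 74.7, 53.9 and 83.3 CPM in WT and 20.4, 28.2, 22.98, 20.5, 17.3 and 24.8 CPM in cKO. The lowest WT library stood well above the highest cKO library, with log2 fold change -1.74 ± 0.20 SE and adjusted p = 0.00287. Sema5b, a semaphorin, fell by 0.36 on the log2 scale (adjusted p = 0.0477), which makes 2 falls and no rise among 31 semaphorins, plexins and partners (median -0.12). Robo3, a receptor that directs axons across the midline, fell by 1.37, from 8.26 ± 1.89 to 3.19 ± 1.17 CPM (adjusted p = 0.0353). Efna5, an ephrin ligand, fell by 0.65, from 18.4 ± 1.45 to 11.7 ± 1.94 CPM (adjusted p = 0.0346). Both belong to a list of 40 ephrin, slit and netrin genes with 2 falls, no rise and a median of -0.18. In that list 34 members had negative values, against 47.89% of all genes tested. Cell surface genes outside the lists fell too, namely Sdk1, a sidekick adhesion molecule of synapses, by 0.80, Cntnap5b, of the contactin-associated family, by 1.14, Prtg, an immunoglobulin-domain receptor, by 1.18, and the tight junction gene Cldn23 by 1.97. Their adjusted p-values were 0.0254, 0.0448, 0.0269 and 0.0262. Cldn23 was rare, at 1.32 ± 0.158 CPM in WT and 0.332 ± 0.182 CPM in cKO.

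Members of the clustered protocadherins, cell surface proteins whose choice of promoter gives single neurons an identity, had low values as lists with 1 call among them. Pcdha12 (ENSMUSG00000103310) held 2.69, 9.76, 7.58, 2.54 and 6.45 CPM in WT and 2.297, 1.47, 1.25, 1.3, 0.704 and 0.881 CPM in cKO. The groups came close, WT replicates 1 and 5 lying just above cKO replicate 8, with log2 fold change -2.12 ± 0.40 SE and adjusted p = 0.0379. Of 11 alpha genes 9 were negative, against 47.89% of all genes tested, 1 fell and the median was -0.67. Of 21 beta genes 20 were negative and the median was -0.37, and of 21 gamma genes 19 were negative with a median of -0.80, with no call in either cluster. The gamma cluster ranged widely within each group, with a mean log2 CPM of 1.83 in WT replicate 5 and 3.47 in WT replicate 3, and 0.60 and 2.96 in cKO replicates 13 and 8. Both low libraries were also the highest of their group for oligodendrocyte markers and for oxidative phosphorylation genes. With the oligodendrocyte score as a covariate the medians of the alpha, beta and gamma genes were -0.44, -0.29 and -0.72, while the part of oxidative phosphorylation genes was not tested. Without cKO replicate 13 the medians were -0.54, -0.19 and -0.64, and without cKO replicate 8 they were -0.80, -0.66 and -1.15. Without the latter 4 beta genes and 1 gamma gene passed. The call of Pcdha12 held in only 3 of the 11 fits that left out 1 library, and cKO replicate 13 was among several libraries without which it was lost. Genes of the alpha and of the gamma cluster share their last exons, so reads there cannot be given to one member with certainty. Cadherins and other protocadherins had 29 of 31 negative values and no call, with Pcdh8 at -0.70 (adjusted p = 0.162). Their median was -0.20, and -0.13 without cKO replicate 13. Members of a list are measured in the same libraries, so such counts of signs are not separate observations.

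Single genes for secreted signals and their receptors fell, out of lists in which most members did not pass. Wnt7b, a Wnt ligand that promotes dendrite growth, had 40.7 ± 7.45 CPM over the WT libraries and 16.7 ± 2.51 CPM over the cKO libraries (mean ± SD), with no overlap and log2 fold change -1.29 ± 0.14 SE and adjusted p = 0.00287. Fzd8, a receptor for Wnt ligands, fell by 0.93 (adjusted p = 0.0353), and Fzd1 was at -0.67 (adjusted p = 0.0525). Wnt7b and Fzd8 were the 2 falls among 38 Wnt pathway genes, with no rise and a median of -0.10. That median was -0.29 without cKO replicate 8, and the falls numbered 1 to 5 over the alternatives. Tle1, a Groucho corepressor, and Ptk7, a pseudokinase receptor of planar cell polarity, fell by 0.39 and 0.51 (adjusted p = 0.044 and 0.0353). Bmp3, an antagonist of other bone morphogenetic proteins, fell by 1.37, Igfbp4, which binds insulin-like growth factors, by 0.88 and Inhbb, the activin B subunit, by 0.73 (adjusted p = 0.0379, 0.0353 and 0.0445). They were the 3 falls among 38 genes of these pathways, with no rise and a median of -0.05, and over the alternatives the falls numbered 0 to 8. Other secreted proteins that fell were Nppc, the C-type natriuretic peptide, by 1.22, Nell1, a secreted matrix protein, by 1.41 and Spon1, the matrix protein F-spondin, by 0.73 (adjusted p = 0.034, 0.0284 and 0.0342). The Notch ligand Jag2 fell by 0.39 (adjusted p = 0.0297), a small change with the groups apart.

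Some genes induced by neuronal activity fell, in a group of genes that also differed between WT libraries. Plk2, a polo-like kinase that is induced by synaptic activity, went from 179.6 ± 49.7 to 72.5 ± 13.6 CPM, with log2 fold change -1.31 ± 0.19 SE and adjusted p = 0.0138. Plk5 (ENSMUSG00000035486), a neuronal relative of it, held 15.3, 19.997, 18.5, 23.6 and 23.6 CPM in WT and 7.15, 11.4, 7.99, 4.31, 3.13 and 7.78 CPM in cKO. Its groups were apart, with log2 fold change -1.53 ± 0.27 SE and adjusted p = 0.034. Ptgs2 (ENSMUSG00000032487), the inducible prostaglandin synthase, held 4.37, 21.9, 18.4, 16.02 and 10.4 CPM in WT and 4.2, 4.48, 4.37, 4.45, 4.46 and 4.33 CPM in cKO. The cKO libraries were nearly equal, whereas WT replicate 1 lay among them and the other WT libraries were higher, with log2 fold change -1.69 ± 0.31 SE and adjusted p = 0.0353. Of 28 activity-induced transcription factors and related genes 1 fell, which was Ier5l, and none rose. Of them 23 were negative, against 47.89% of all genes tested, with a median of -0.50. The list's mean log2 CPM was 5.22, 5.24 and 5.10 in WT replicates 3, 4 and 5, but 4.12 and 4.31 in WT replicates 1 and 6, within the cKO range of 4.04 to 4.75. Npas4, a transcription factor induced by calcium entry, followed that pattern at 22.9, 61.9, 65.5, 58.6 and 24.8 CPM in WT and 24.02, 22.1, 14.7, 13.9, 19.4 and 35.5 CPM in cKO, and did not pass at -1.11 (adjusted p = 0.209). Of 33 activity-induced effectors, Plk2 and Ptgs2 were the 2 falls, none rose and the median was -0.22. Ier5l kept its groups apart although WT replicate 1 was its lowest WT library.

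A few enzymes that modify glycans and a few channel genes fell. St3gal1, a sialyltransferase that caps O-glycans, went from 43.5 ± 10.4 to 18.5 ± 2.23 CPM, with log2 fold change -1.23 ± 0.15 SE and adjusted p = 0.00531. Ndst3, a heparan sulfate sulfotransferase, fell by 0.92 (adjusted p = 0.0466). They were 2 falls and no rise among 32 sialyltransferases and heparan sulfate enzymes (median -0.07), and St6gal2 was at -0.74 (adjusted p = 0.0843). B3galt2, a galactosyltransferase, fell by 0.88 (adjusted p = 0.0344). Clcn2, a chloride channel, went from 88.4 ± 2.89 to 54.1 ± 6.22 CPM, with log2 fold change -0.71 ± 0.08 SE and adjusted p = 0.00328, the one call among 39 sodium, calcium and chloride channels. Abcc8, the sulfonylurea receptor subunit of ATP-sensitive potassium channels, went from 27.7 ± 1.81 to 16.9 ± 1.22 CPM, with log2 fold change -0.71 ± 0.08 SE and adjusted p = 0.00287. In both of these genes the change was modest and the libraries of a group lay close together. The list of 52 potassium channels held no call, with a median of -0.13 (3 falls with the oligodendrocyte score as a covariate), and Kcnip3 and Kcnh1 were at 0.60 (adjusted p = 0.135) and -0.89 (adjusted p = 0.159). Ptpru, a receptor tyrosine phosphatase, fell by 1.04 (adjusted p = 0.00597), the one call among 17 such genes, and Slc16a11, a monocarboxylate transporter family member, by 0.68 (adjusted p = 0.0389).

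The other falls are given one by one, since no list fixed here groups several of them. Npas2, a partner of BMAL1 in the circadian clock, fell by 0.74 (adjusted p = 0.0284), the one call among 19 clock genes. Zfp703, a zinc finger repressor, fell by 0.68, Pknox2, a TALE homeobox gene, by 0.80 and Mycl, a member of the Myc family, by 0.73 (adjusted p = 0.00328, 0.0297 and 0.033). Fbxw7, the substrate receptor of a ubiquitin ligase that removes cyclin E and Myc, fell by 0.71 with overlapping groups (adjusted p = 0.034), and Cdc25b, a phosphatase that activates cyclin-dependent kinases, by 0.43 (adjusted p = 0.0495). The kinases Mknk2 and Rps6ka2, which act below the ERK pathway, fell by 0.38 and 0.62 (adjusted p = 0.034 and 0.0344). Raph1, or lamellipodin, an actin regulator, fell by 0.97 (adjusted p = 0.0493). Rasgef1b and Rasgef1c, of one family of guanine nucleotide exchange factors, fell by 0.88 and 1.36 (adjusted p = 0.034 and 0.0484). The long non-coding RNA Miat, the most abundant called gene, went from 460.0 ± 32.7 to 269 ± 50.7 CPM, with log2 fold change -0.77 ± 0.13 SE and adjusted p = 0.0324. Tmem132a, a transmembrane protein, and Dpy19l1, a C-mannosyltransferase family member, were at -1.47 and -0.996 (both past the threshold, adjusted p = 0.0138 and 0.00328). Further protein-coding genes that fell, by 0.37 (Nap1l1) to 1.07 (Dipk2a), were Arl4a, Cmya5, Egfem1, Fjx1, Frmd6, Greb1l, Hspa2, Lcorl, Sertm1, Tmem74b and Tnrc6c. Greb1l and Hspa2 lie at -0.97 and -0.52, the former a paralogue of an oestrogen-regulated gene and the latter a heat shock protein of the HSP70 family. Transcripts without an assigned function fell as well, from -1.90 for Gm46409 to -0.49 for Gm14169, with Gm43674, Gm17641, Gm10710, Gm43672, 9430021M05Rik, BC006965 and 1110032F04Rik between them.

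The 13 rises were smaller, and no list held more than 1 of them except that of carbohydrate metabolism. Rgs13 (ENSMUSG00000051079), a regulator of G protein signalling, held 0.471, 1.28, 1.91, 1.69 and 1.49 CPM in WT and 2.36, 6.02, 5, 6.23, 7.19 and 6.31 CPM in cKO. It was rare in both groups, and cKO replicate 8 stood only just above the WT libraries, with log2 fold change 2.01 ± 0.35 SE and adjusted p = 0.0324. Rcor2 (ENSMUSG00000024968), a subunit of the CoREST corepressor, held 13.4, 14.96, 16.8, 15.5 and 17.4 CPM in WT and 22.6, 26.3, 29.7, 28.4, 23.5 and 31.1 CPM in cKO, without overlap and with log2 fold change 0.79 ± 0.11 SE and adjusted p = 0.00981. Rest, which recruits CoREST, was at -0.24 (adjusted p = 0.779), and Rcor2 was the one call among 13 genes of that list. Zmynd8, a reader of acetylated histones, rose by 0.37, from 156 ± 4.48 to 202 ± 6.27 CPM (adjusted p = 0.0244). Its change was among the smallest called and its libraries lay close together in each group.

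Single metabolic and immune genes were among the other rises. Pfkfb3 (ENSMUSG00000026773), which sets the rate of glycolysis, held 24.5, 25.4, 26.6, 25.8 and 24.8 CPM in WT and 30.3, 37.8, 40.9, 41.7, 37.1 and 35.3 CPM in cKO, with log2 fold change 0.55 ± 0.09 SE and adjusted p = 0.0244. Idnk (ENSMUSG00000050002), a gluconokinase, held 12.4, 12.4, 12, 12.9 and 12.3 CPM in WT and 14.8, 17.1, 18.5, 18.7, 21.03 and 19.5 CPM in cKO, with log2 fold change 0.55 ± 0.10 SE and adjusted p = 0.0332. In both genes the WT libraries were nearly equal and all cKO libraries were higher. They were 2 rises and no fall among 28 genes of glycolysis and neighbouring pathways, with a median of 0.16. Masp1 (ENSMUSG00000022887), a serine protease of the lectin complement pathway, held 8.81, 14.6, 13.9, 11.5 and 12.7 CPM in WT and 18.7, 18.9, 22.3, 26, 21.2 and 19.5 CPM in cKO, with log2 fold change 0.78 ± 0.14 SE and adjusted p = 0.034. Olfml3 (ENSMUSG00000027848), an olfactomedin-like protein of microglia, held 16.95, 13.9, 18.1, 16.2 and 17.8 CPM in WT and 22.97, 24.9, 24.6, 21, 23.2 and 23.4 CPM in cKO, with log2 fold change 0.49 ± 0.09 SE and adjusted p = 0.034. It was the one call among 22 microglia markers. The summed level of those markers was 546 to 623 CPM in WT and 601 to 705 CPM in cKO, a median log2 fold change of 0.16, and its part in the rise of Olfml3 was not tested.

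The remaining rises had no common role. Abca7 (ENSMUSG00000035722), a lipid transporter, held 23.1, 26.6, 26.6, 23.9 and 31.5 CPM in WT and 47.4, 36.4, 35.4, 36.3, 47.7 and 35.02 CPM in cKO, with log2 fold change 0.59 ± 0.12 SE and adjusted p = 0.0495. Its adjusted p lay just under the threshold, and the call was lost with any single library left out. Bcar3 (ENSMUSG00000028121), an adaptor of integrin and receptor signalling, held 12.9, 11.9, 13.03, 12.4 and 14.1 CPM in WT and 19.5, 19.6, 16.5, 21.7, 19.6 and 18.4 CPM in cKO, with log2 fold change 0.58 ± 0.09 SE and adjusted p = 0.0225. Pyurf (ENSMUSG00000043162) held 15.6, 16, 16.3, 15.6 and 15.2 CPM in WT and 19.2, 20.7, 22.2, 22.8, 25.7 and 20.2 CPM in cKO, with log2 fold change 0.47 ± 0.09 SE and adjusted p = 0.0379. In all of these the cKO libraries were above the WT libraries without overlap. Arsi (ENSMUSG00000036412), an arylsulfatase gene whose nearest tested neighbours in RefSeq's order are Tcof1 and Camk2a (median of the 6 tested genes of that locus 0.22), was rare at 0.202, 0.960, 0.736, 0.693 and 1.06 CPM in WT and reached 6.17, 4.15, 3.68, 3.35, 4.53 and 3.67 CPM in cKO, the largest rise of all called genes, with log2 fold change 2.54 ± 0.32 SE and adjusted p = 0.00541. The promoter of Camk2a drives the Cre of this model, and Camk2a itself was at -0.14 (adjusted p = 0.932), with 1672 to 2899.6 CPM in WT and 1392 to 2632 CPM in cKO. The transgene's part in the counts of Arsi was not tested. Plb1, a phospholipase, was also rare and rose by 1.60, from 1.14 ± 0.412 to 3.47 ± 1.05 CPM (adjusted p = 0.0353).

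**Figure D3:**
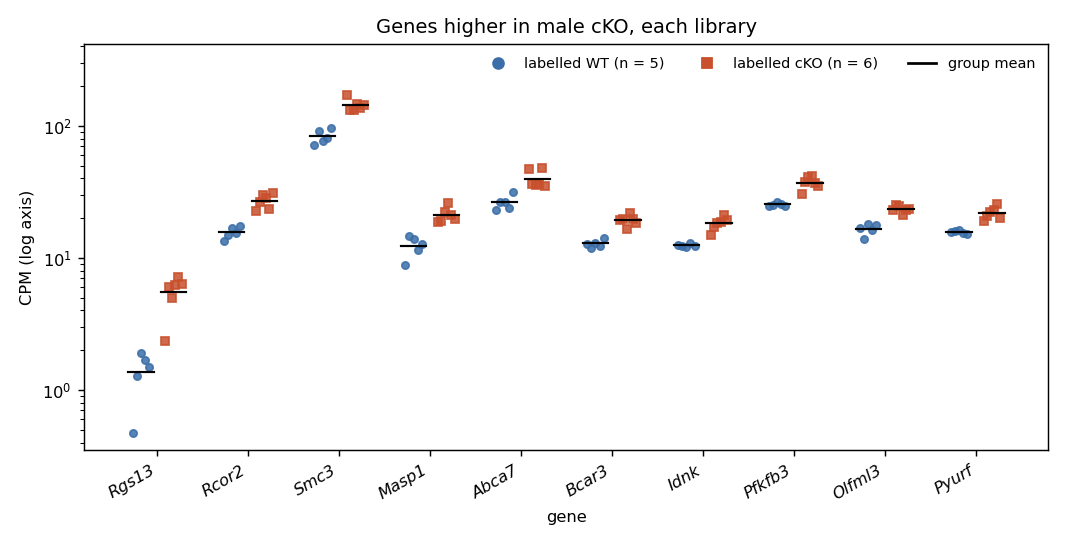
Each point is one library (CPM, log axis), for the 10 called genes with the largest rises among those with a mean count of at least 50, with lines at the group means of 5 WT and 6 cKO libraries. In all 10 genes every cKO library lies above every WT library, and the cKO library nearest to WT for Rgs13 is replicate 8, at 2.36 CPM against at most 1.91 CPM in WT.

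A pair of cortical layer markers fell. Among 25 markers of deep-layer excitatory neurons 2 fell and none rose, with a median of -0.29. Parm1 fell by 1.22, from 69.8 ± 17.4 to 29.99 ± 7.24 CPM, and Rprm, a marker of layer 6 neurons, by 1.15, from 75.2 ± 31.2 to 33.98 ± 5.796 CPM (adjusted p = 0.0269 and 0.0495). None of 22 upper-layer markers passed, with a median of -0.29, but with the oligodendrocyte score as a covariate 4 passed as lower and the median was -0.14. Ccn3 and Calb1, markers of upper layers, had every cKO library below every WT library, at -1.31 (adjusted p = 0.0627) and -0.99 (adjusted p = 0.0862). Slc17a7, a defining gene of cortical excitatory neurons, was at 1399.9 ± 402 CPM in WT and 1627 ± 338 CPM in cKO and did not pass the threshold. Interneuron markers held no call among 28, with a median of -0.05.

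Lists of other cell types and of stress held few calls. None of 24 astrocyte markers passed, and Gfap, the filament gene that rises in reactive astrocytes, had every cKO library above every WT library, at 145, 95.1, 138, 114 and 197 CPM in WT and 226, 225, 227, 269, 390.4 and 278 CPM in cKO, with a value of 0.97 (adjusted p = 0.0542). None of 30 oligodendrocyte markers passed (median 0.11). Of 25 interferon-stimulated genes 24 were positive, while 47.89% of all genes tested were negative. None of the 25 passed, with a median of 0.29, and Irf7, a transcription factor of that response, was at 1.02 (adjusted p = 0.155). Antigen presentation genes showed the same balance, with 15 of 16 positive, none called and a median of 0.25. Nuclear genes of oxidative phosphorylation were positive in 39 of 40 with a median of 0.13 and no call. That median was 0.05 without cKO replicate 13, the library highest for these genes. The 8 genes of the mitochondrial genome had a median of 0.19, or 0.12 without that library, and no call. The p53 and DNA damage list had no call among 21, with Sesn1 at 0.26 (adjusted p = 0.162) and Ccng1 at 0.32 (adjusted p = 0.209). The heat shock and glucocorticoid list had none among 23. In all, 24 of the 59 lists held a called gene, 36 of the 94 called genes were in a list and 58 were in none. The lists matched 1302 of the 20565 genes of the deposited counts. They were chosen with earlier results of these data known, so these counts do not show that the calls gather in them.

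**Figure D4:**
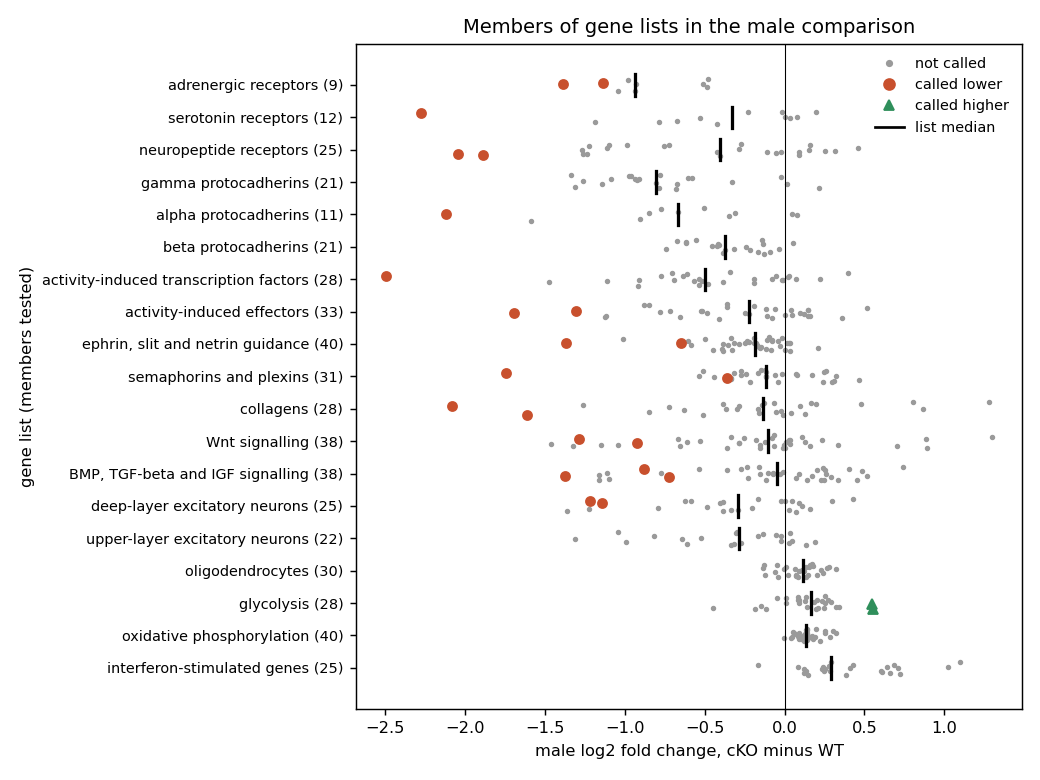
Each point is one tested member of a gene list at its male log2 fold change of cKO minus WT, with called falls as filled circles, called rises as triangles and the list median as a vertical line. The medians of adrenergic receptors and gamma protocadherins lie farthest below 0 of the lists shown, at -0.94 and -0.80, while oxidative phosphorylation genes lie in a narrow band above 0 without a call.

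The male calls were set beside the female libraries of the same genotypes, which share no library with them. In females, where 16123 genes were tested over 5 WT and 6 cKO libraries, 543 genes (3.37%) passed, 443 (2.75%) lower and 100 (0.620%) higher. Of the 94 male calls 93 were tested in females, and all 80 falls and all 13 rises had the same sign there. Over the 15787 genes tested in both sexes 71.1% had the same sign. Among the male calls 66 passed in the same direction in females, which is 70.2% of the male list and 12.2% of the female list. The large falls were of like size, with female log2 fold changes of -2.47 for Ier5l, -2.12 for Htr1a, -2.27 for Col6a2, -2.02 for Sstr1, -1.92 for Sstr2 and -3.82 for Dio3. Male falls that did not pass in females included Ptgs2, at -0.87 (adjusted p = 0.527), Plk5, at -0.98 (adjusted p = 0.124), Bmp3, at -1.16 (adjusted p = 0.0858), and Robo3, at -1.08 (adjusted p = 0.103). For Adra2a the female value was -1.17 (adjusted p = 0.0654). Rises that did not pass there included Rgs13, at 1.89 (adjusted p = 0.0564), and Plb1, at 1.27 (adjusted p = 0.24). The list of activity-induced transcription factors had a median of -0.07 in females, with 1 fall, against -0.50 in males. For activity-induced effectors the median was -0.19 in females, with 5 falls, against -0.22 in males.

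**Figure D5:**
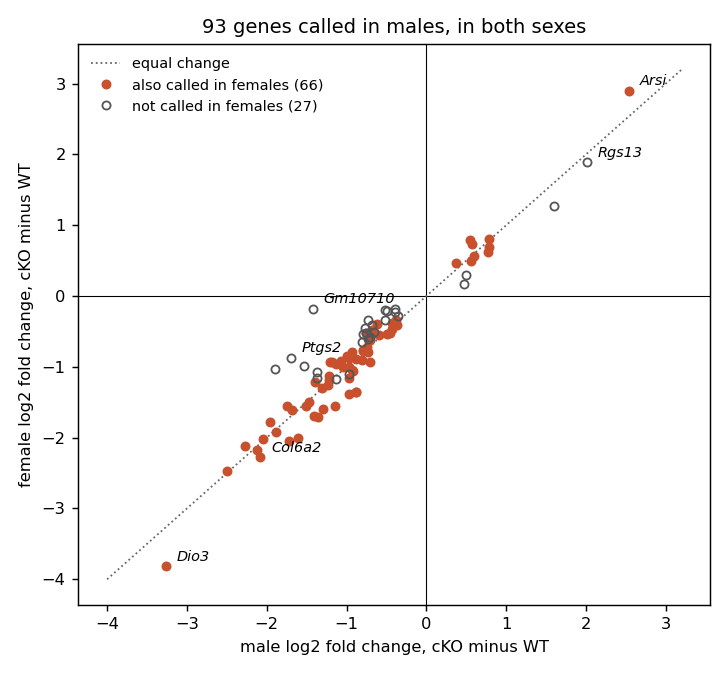
Each point is one of 93 genes called in males and tested in females, at its log2 fold change of cKO minus WT in males and in females, with the dotted line at equal change. Filled points are the 66 genes also called in females, and all points lie in the quadrants of equal sign, Gm10710 nearest to no change in females.

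The difference between sexes was itself tested. In a fit of all 22 libraries the genotype by sex term of edgeR's quasi-likelihood test called 0 of 16855 genes (0%). DESeq2 and limma voom also called 0. With edgeR 176 genes (1.04%) had an unadjusted p under 0.05, less than the share of 0.05 expected if no gene differed. The lack of calls therefore does not show that the effects are equal in the sexes. Genes with the smallest p of that term included Esrrb, an orphan nuclear receptor, at 0.49 in males and -1.14 in females, Spdya, a cyclin-dependent kinase activator, at 0.53 and -0.49, and Col2a1, a collagen, at -0.99 and 0.05, each with an adjusted p of 1 for the difference. The male fall of Gm10710, at -1.42 against -0.18 in females, was the one male call among the 10 smallest. The smaller count of calls in males stood beside a larger spread, with a biological coefficient of variation of 0.235 in males and 0.154 in females. The counts of 94 and 543 were not compared by a test, and the term for the difference gave no call.

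The calls held to different degrees when 1 library was left out. With 1 library left out the count was 18 to 60 for 9 of the 11 libraries, 95 without WT replicate 1 and 201 without cKO replicate 8. The count fell for most libraries, in either group, so the loss of a call does not show that it rested on the library left out. Of the 94 calls 17 held with every library left out in turn, 14 falls and 3 rises. The falls were Dio3, Ier5l, Htr1a, Col6a2, Plxnd1, Cdkn1c, Tmem132a, Wnt7b, St3gal1, Ptpru, Dpy19l1, Abcc8, Clcn2 and Zfp703, and the rises were Smc3, Rcor2 and Arsi. These 17 also held under the other normalizations, filters and tests tried. Every call outside these 17 was lost without at least 1 library, with the sign kept throughout, and many were lost in most of the 11 fits. Among the genes described above, the call of Adra2c held in 6 of the 11 fits and that of Plk5 in 4. Those of Sstr1, Sstr2 and Pcdha12 held in 3, and those of Ptgs2, Adra2a and Rgs13 in 2. Scores of tissue content were also fitted as covariates. With the oligodendrocyte score as a covariate 266 genes were called, all 94 among them, and with the striatum score 148 were called, 91 of the 94 among them.

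The called genes were also described by length, level and neighbours, of which level enters the filter and the power of the test. Genes that fell had a median length of 21.2 kb in RefSeq's GRCm38 annotation and a median WT level of 34.2 CPM, against 24 kb and 21.4 CPM for all genes tested, and genes that rose had medians of 40 kb and 15.6 CPM. Of 156 nearest tested neighbours of the genes that fell, 45.5% had a negative value, against 50% of the neighbours of all genes with a negative value. Of the 156 neighbours 4 were themselves called lower, against 71 of 14172 neighbours of all genes with a negative value, without a test of the difference. These 4 are 2 adjacent pairs, each counted from both sides, namely Wnt7b with AU022754, at -1.29 and -1.95, and Cldn23 with Prag1, at -1.97 and -0.79. For Dio3 the antisense partner Dio3os was at -0.22 (adjusted p = 0.967), and without a stated strand setting reads of the pair cannot be told apart where they overlap.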

How the data were processed

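Bulk RNA-seq libraries of male mice (5 labelled WT, 6 labelled cKO) and of females (5 and 6) were used. The deposited values are raw counts per gene, whole numbers that the authors made with cutadapt, STAR and HTSeq on GRCm39, per the submitters' processing notes. The sources used here give neither tool versions, the annotation nor the strand setting. Polyadenylated RNA was isolated and NEBNext libraries were prepared, per the labels' protocols. The authors' normalized columns (22) and their table of fold changes and p-values were not used.

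Samples were grouped by sex and genotype as labelled. From the counts, edgeR 4.0.16 in R 4.3.3 was run with filterByExpr (minimum count 10, minimum total 15), TMM scaling and the quasi-likelihood test, cKO minus WT within each sex, with Benjamini-Hochberg adjustment over all genes tested and a threshold of 0.05. The SE is the log2 fold change divided by the square root of F. CPM values are TMM-scaled. A genotype by sex term was fitted over all 22 libraries. Groups share no replicate numbers, so no block was fitted. Alternatives were DESeq2 1.42.0, limma 3.58.1 voom with sample weights, other scalings and filters, covariates and each library left out. The scripts were tested on simulated data. Promoters, gene lengths and neighbours come from RefSeq's GRCm38.p6, and no coordinates were converted. Promoters were matched by symbol, and lengths and neighbours by Ensembl identifier or, failing that, by symbol (94.1% of genes tested have a length).

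The libraries and lists were chosen with earlier results of these data known. Named genes are those past the threshold, the 3 smallest p of each list, defining markers and the 10 smallest p of the genotype by sex term. Values by library are given for Smc3 and for the 10 largest falls and 10 largest rises with a mean count of at least 50. Outside these rules, Dio3, Dio3os, Pcdha12, Npas4, Arsi, Tcof1, Gfap, Adra2b and Camk2a were named or given by library after their values were seen. Some of the genes tested are not reported here.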

Additional observations from a re-analysis of the deposited data

Results flagged for a closer look

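Library values were compared within groups of 5 and 6 for each list, for Smc3 and for the 10 largest falls and 10 largest rises with a mean count of at least 50. Other genes given by library, such as Dio3, Pcdha12, Npas4, Arsi and Gfap, were not compared in this way. Dixon's criterion marked 10 of 158 groups (6.33%), where chance marks about 1 in 20 groups. Smc3 stood at 172 CPM in cKO replicate 8, against 130.6 to 145.8 CPM in the other cKO libraries.

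In cKO replicate 13 the mean log2 CPM was the farthest from the other 5 cKO libraries in 7 lists. It was 1.956 for adrenergic receptors (others 2.344 to 2.497), 2.667 for neuropeptide receptors (3.065 to 3.23) and 6.268 for GABA receptors (6.855 to 7.014). It was 5.176 for potassium channels (5.622 to 5.794) and -0.5866 for alpha protocadherins (0.6967 to 1.426). It was 5.502 for synaptic adhesion (5.866 to 6.01) and 7.271 for postsynaptic scaffold genes (7.584 to 7.723). These 7 lists are low in the same library, so they are not separate observations. Adrenergic receptors stay below 0 without it, with a median log2 fold change of -0.92, as do neuropeptide receptors at -0.35.

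In WT replicate 5 semaphorins and plexins were at 5.196, against 5.328 to 5.373 in the other WT libraries, and in WT replicate 1 oligodendrocyte precursor markers were at 4.923, against 4.587 to 4.673.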

How the results depend on the processing

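The male count of 94 called genes was 92 and 93 with DESeq2's size factors and upper-quartile scaling, 72 without a filter and 94 with a filter at 1 CPM. It was 328 (232 lower, 96 higher) with DESeq2's Wald test, 341 (264 and 77) with limma voom and sample weights, and 276 (221 and 55) when all 4 groups shared one estimate of the spread. With the oligodendrocyte score as a covariate it was 266 and with the striatum score 148. Leaving out 1 library gave 18 to 201 calls. The female count of 543 became 899 with DESeq2's Wald test and 1136 with limma voom, and 324 to 681 with 1 library left out. The genotype by sex term called 0 genes under the alternatives run. No called gene changed sign over 1972 pairs of a called gene and an alternative, and 677 of these pairs missed the threshold. Of 59 lists 42 kept the sign of their median in all settings. The median of collagens ranged from -0.28 to 0.12 and that of oligodendrocyte markers from -0.20 to 0.53. The median of all genes stayed between -0.0049 and 0.0168. Calls at low abundance (Dio3, Arsi, Rgs13, Cldn23 and Plb1) rest on few counts, and intervals cover the spread of these libraries alone. No paired analysis was possible because the groups compared share no replicate numbers in the labels.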
